A study of Homo sapiens with 8 samples.

Results

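The BCL2 family survival genes are a set of 10 genes whose products decide whether a cell keeps its mitochondria closed or releases the proteins that kill it. They were chosen by gene symbol: BCL2, BCL2L1, BCL2L2, MCL1, BCL2L11, BAK1, BID, BIK, BMF and HRK. Of the 10, 9 had a row of the array table annotated to that symbol alone, among 18377 genes measured in this way. The only row that names BCL2L2, the gene of BCL-w, also names the read-through gene BCL2L2-PABPN1, so it was kept apart.

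The data come from 8 arrays of the Affymetrix Human Gene 1.0 ST type, in 4 groups of 2 biological replicates. The groups were V71 DF, V71 NDF, PLKO DF and PLKO NDF, where V71 and PLKO are codes in the sample titles for stable lines of SHSY5Y, a human neuroblastoma cell line of neural crest origin. NDF cells grew in serum medium on laminin. DF cells, also on laminin, received 10 µM retinoic acid during 5 days of differentiation, followed by 3 days without serum in 2 nM BDNF, a neurotrophin. The lines were made with viruses that carry puromycin resistance and were kept under puromycin, so this selection is common to all groups. There was 1 line of each kind, so an effect of the viral insert cannot be told apart from any other difference between these lines. The retinoic acid, the BDNF and the loss of serum differ together between DF and NDF, so their shares cannot be told apart either. GEO's treatment label gives V71 as control and PLKO as the shRNA line, whereas pLKO.1-Puro is the control vector in the study's methods. In the methods the shRNA is directed against IKBKAP, the gene of the Elongator subunit IKAP/hELP1. A row for IKBKAP was not analysed here and gave no check of the labels. Lines are hence referred to by title code, and PLKO is always subtracted from V71 in a signed difference.

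The BCL2 family works through a short helix, the BH3 segment. BCL2, BCL2L1 (BCL-XL), BCL2L2 (BCL-w) and MCL1 hold on to pro-apoptotic members and keep the outer mitochondrial membrane intact. BAK1 and its relative BAX form the pores, and the BH3-only proteins BCL2L11 (BIM), BID, BIK, BMF and HRK carry the death signal to them. In sympathetic neurons of rodents, loss of trophic factor raises BIM and HRK, and BCL2 protects against that loss.

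Values are RMA values on a log2 scale, so a difference of 1 is a 2-fold difference. The medians of the arrays lay between 4.60 and 4.68, and Spearman's rho between arrays of a group was at least 0.9947, against at most 0.9931 between arrays of different groups. In SHSY5Y the noradrenergic neuroblast markers are the defining ones. Of 15 such markers 13 were measured, and none of the 13 had a group mean below the lower quartile of its arrays. Array means over the 13 ran from 7.99 to 8.40, but TH averaged 4.28 to 4.43, under the array medians. Array means over 7 Schwann cell markers stayed between 3.62 and 3.81, and 0 of the 7 passed the test in any comparison. Only 1 to 2 of these 7 had a group mean below the lower quartile, so that cut alone does not tell the lists apart. No member had a group mean below the lower quartile, which was 3.0 to 3.06. The rows probe the gene as a whole, so the long and short products of BCL2L1, which act in opposite ways, were not separated. In bulk RNA, fewer cells with a transcript and less of it per cell cannot be told apart.

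Among the 9 measured members BCL2 varied most. Its group means spanned 1.45 on the log2 scale, followed by BCL2L1 with a span of 0.46, BAK1 with 0.43 and BID with 0.35. BMF spanned 0.28, BIK 0.25, BCL2L11 0.19, MCL1 0.18 and HRK 0.12. The plot of the members by array shows these spans on axes of equal length.

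**Figure D1:**
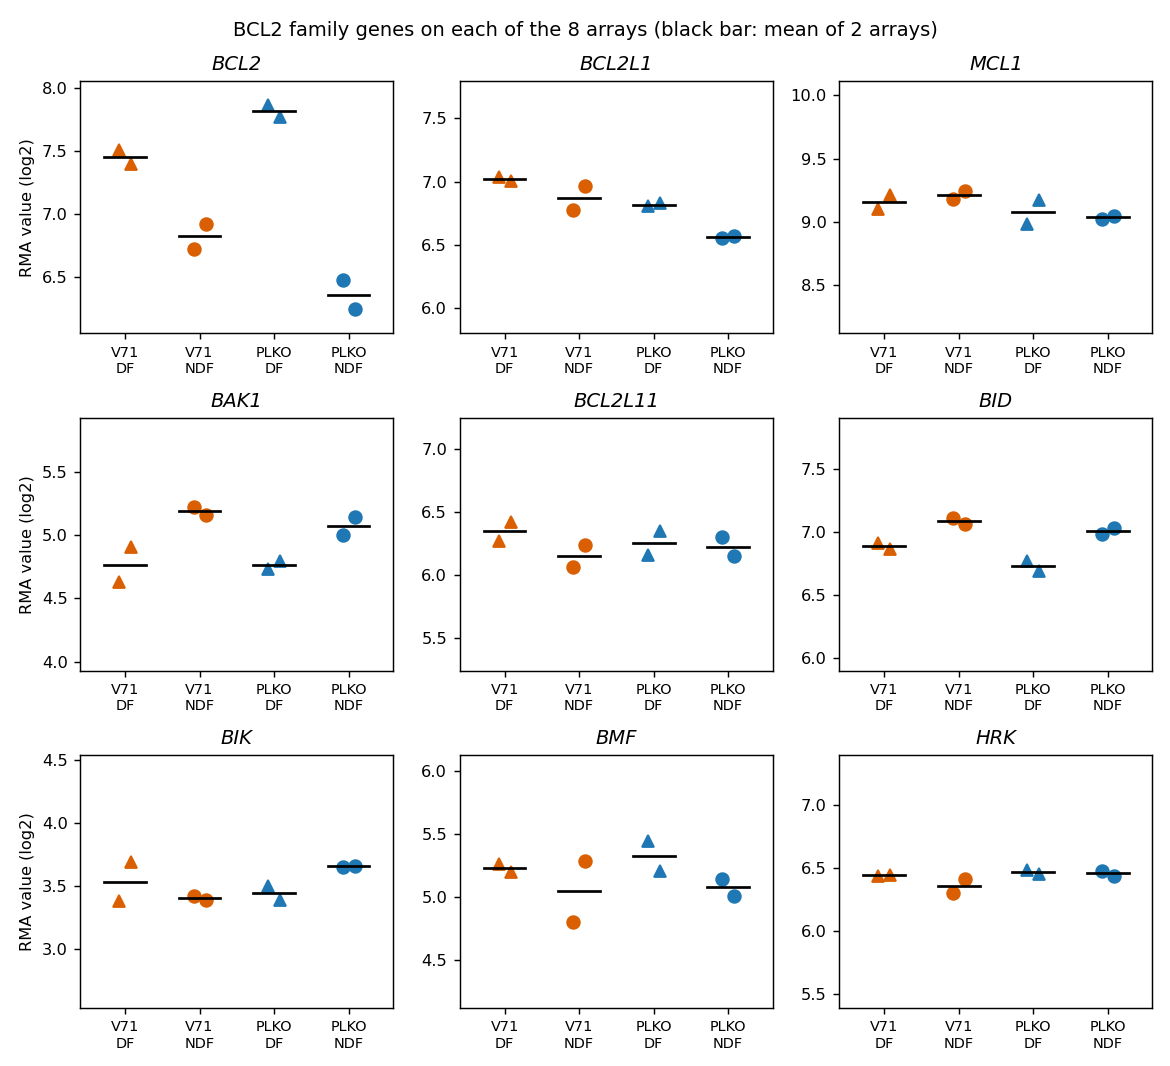
RMA values (log2) of the 9 measured members on each array, in panels that all cover 2 log2 units. Triangles are DF arrays, circles NDF arrays, orange V71, blue PLKO, and a black bar is the mean of 2 arrays. BCL2 reached 7.81 in PLKO DF and 6.36 in PLKO NDF, while HRK stayed within 0.12 between group means.

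The promoter windows of BCL2, which rose in both lines, and of BAK1, which fell in V71, are shown as the places where transcription of these members starts. They run from 250 bases before to 50 bases after an annotated start, 5′ to 3′ on the strand of the gene, from RefSeq on GRCh38.p14. The BCL2 window lies at chr18:63319720-63320019 on the minus strand and the BAK1 window at chr6:33580227-33580526, also on the minus strand. The 5′ end of the BCL2 gene is annotated at 63320090, so the BCL2 window lies inside the gene and its start is not the outermost one. Capitals mark TGACG read on the opposite strand, the core motif of CREB, a factor that neurotrophin signals act on.
BCL2: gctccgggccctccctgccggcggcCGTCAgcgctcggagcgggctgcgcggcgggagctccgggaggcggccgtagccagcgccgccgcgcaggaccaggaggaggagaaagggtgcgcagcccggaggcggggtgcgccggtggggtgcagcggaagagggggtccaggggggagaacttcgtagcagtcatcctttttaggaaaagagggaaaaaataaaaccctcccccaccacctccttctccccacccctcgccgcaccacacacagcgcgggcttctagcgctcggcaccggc
BAK1: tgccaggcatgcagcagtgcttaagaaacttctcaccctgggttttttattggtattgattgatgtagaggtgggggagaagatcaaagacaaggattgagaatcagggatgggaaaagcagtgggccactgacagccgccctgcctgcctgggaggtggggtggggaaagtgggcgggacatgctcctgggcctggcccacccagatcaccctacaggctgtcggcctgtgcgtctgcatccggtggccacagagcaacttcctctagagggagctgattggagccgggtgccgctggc
On both strands, TGACG occurred once in the BCL2 window, at position -225 from the start used for that window, and 0 times in the BAK1 window. AGGTCA, the core motif of the retinoic acid receptors, occurred 0 times in both, so no match overlapped another. Of all 35116 windows of this length, 24.6% held TGACG and 13.8% held AGGTCA. The BCL2 window was 70.7% G and C and the BAK1 window 58.7%, against a median of 58.7% over all windows. Windows were found for 7 of the 10 members. TGACG also occurred in a window of BCL2L1, of BMF and of HRK, and AGGTCA in another window of BMF, all members that passed in no comparison. The windows of BCL2L11 and BID held neither.

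BCL2 rose upon differentiation in both lines, and more in PLKO than in V71. BCL2 (row 8023646, chromosome 18) is the founding anti-apoptotic member. It stood at 7.50 and 7.40 on the V71 DF arrays, against 6.72 and 6.92 on the V71 NDF arrays. In PLKO it stood at 7.86 and 7.77 in DF, against 6.48 and 6.24 in NDF. In both lines the lowest DF array was above the highest NDF array. The means were 7.45 ± 0.07 in V71 DF and 6.82 ± 0.14 in V71 NDF (SD, n = 2 each), a change of 0.63 (SE 0.11) or 1.55-fold, with an adjusted p of 0.00427 in limma. They were 7.81 ± 0.07 in PLKO DF and 6.36 ± 0.16 in PLKO NDF, a change of 1.45 (SE 0.11) or 2.74-fold, with an adjusted p of 2.27e-05 in limma. The fold had a 95% confidence interval of 1.30 to 1.83 in V71 and 2.31 to 3.25 in PLKO. In PLKO the change passed an adjusted p of 0.05 under every setting tried, from 6.45e-07 in limma to 0.0143 without variance moderation. In V71 it missed without variance moderation, with an adjusted p of 0.0724, and it fell under 1.5-fold without V71 NDF replicate 2, at 0.53, and without V71 DF replicate 1, at 0.58.

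The BCL2 response was 0.82 smaller on the log2 scale in V71 than in PLKO, a ratio of 1.77-fold between the responses. This difference was tested directly as the interaction of line and differentiation, at -0.82 (SE 0.15, 95% confidence interval -1.17 to -0.48), with an adjusted p of 0.046 in limma. BCL2 was the only member of the 9 past the threshold there, where 1.39% of all genes passed and 0.305% passed in the same direction. The call did not hold without variance moderation, at an adjusted p of 0.355. It also ended when any of the 8 arrays was left out, with values between -0.94 without PLKO NDF replicate 2 and -0.71 without PLKO NDF replicate 3. The adjusted p then ran from 0.063 without V71 NDF replicate 2 to 0.217 without PLKO NDF replicate 3. The value stayed negative in each of these fits, as the plot of the left-out arrays shows.

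**Figure D2:**
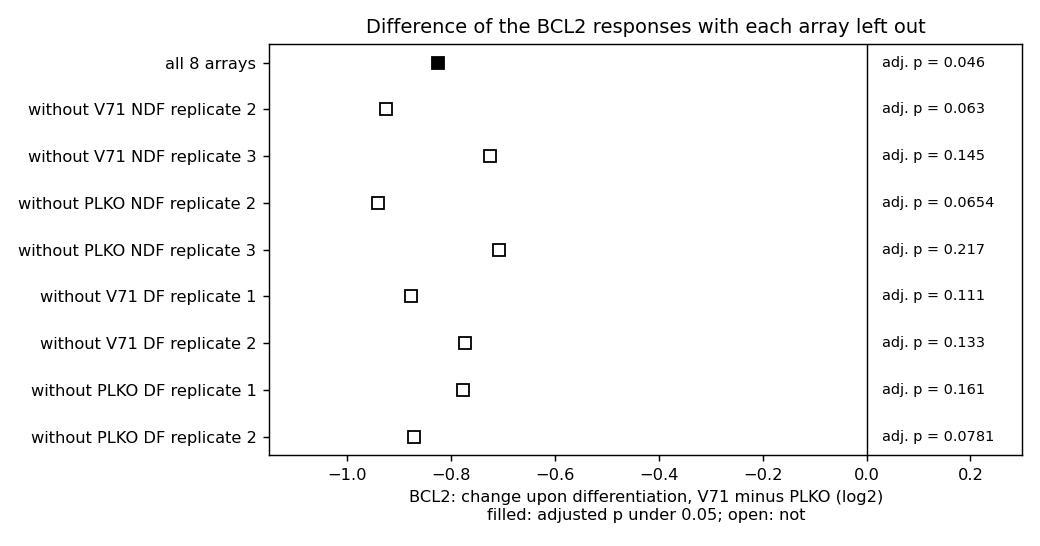
Difference of the BCL2 responses to differentiation, V71 minus PLKO (log2), with all 8 arrays and with each array left out. Filled squares have an adjusted p under 0.05 in limma and open squares do not. Only the value over all 8 arrays, -0.82, is filled.

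By group mean, BCL2 stood in the order PLKO DF at 7.81, V71 DF at 7.45, V71 NDF at 6.82 and PLKO NDF at 6.36. The middle pair, V71 DF and V71 NDF, differed as given above. The outer neighbours did not pass the test. V71 minus PLKO was -0.36 in DF (95% confidence interval -0.61 to -0.12, adjusted p = 0.11 in limma), with both V71 arrays below both PLKO arrays. In NDF it was 0.46 (0.22 to 0.71, adjusted p = 0.067 in limma), with both V71 arrays above both PLKO arrays. The line with the higher BCL2 values was thus V71 in NDF and PLKO in DF. These comparisons share arrays and are given side by side only.

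The genes whose pattern over the 8 arrays lay closest to BCL2 were TM7SF2, PTCH1 and PCDHB14. Likeness was the root mean square difference of the log2 values after each gene was centred on its own mean, among 4334 genes past the test in at least 1 comparison. It was 0.125 for TM7SF2 and 0.154 for both PTCH1 and PCDHB14.

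BCL2L1 and MCL1, the other anti-apoptotic members with rows of their own, passed in no comparison. BCL2L1 (row 8065569, chromosome 20) stood at 7.04 and 7.0 in V71 DF, 6.78 and 6.96 in V71 NDF, 6.81 and 6.83 in PLKO DF, and 6.56 and 6.57 in PLKO NDF. Every V71 array was above every PLKO array of the same condition, and every DF array above every NDF array of the same line. V71 minus PLKO was 0.20 in DF (95% confidence interval 0.00 to 0.40, adjusted p = 0.288) and 0.31 in NDF (0.11 to 0.51, adjusted p = 0.145). The change upon differentiation was 0.15 in V71 (-0.05 to 0.35, adjusted p = 0.367) and 0.25 in PLKO (0.05 to 0.45, adjusted p = 0.105). These intervals are not adjusted for the number of genes, which is why some leave out 0 beside an adjusted p above the threshold. The closest patterns to BCL2L1, among 4335 genes, were ZNF663P at a root mean square difference of 0.041, BLOC1S6 at 0.064 and SPTLC2 at 0.067.

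MCL1 (row 7919751, chromosome 1), a short-lived protein whose turnover sets its level, had overlapping DF and NDF arrays in both lines. It stood at 9.10 and 9.21 in V71 DF, 9.18 and 9.25 in V71 NDF, 8.98 and 9.17 in PLKO DF, and 9.02 and 9.05 in PLKO NDF. Its change upon differentiation was -0.06 in V71 (95% confidence interval -0.27 to 0.15, adjusted p = 0.80 in limma) and 0.04 in PLKO (-0.17 to 0.25, adjusted p = 0.867). As a ratio of DF over NDF, the intervals ran from 0.83 to 1.11 in V71 and from 0.89 to 1.19 in PLKO. V71 minus PLKO was 0.08 in DF (-0.13 to 0.29, adjusted p = 0.769) and 0.18 in NDF (-0.03 to 0.39, adjusted p = 0.485).

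The row that BCL2L2 shares with its read-through gene stood at 5.0 and 4.99 in V71 DF, 5.17 and 4.97 in V71 NDF, 5.12 and 5.28 in PLKO DF, and 5.30 and 5.09 in PLKO NDF. Its adjusted p was between 0.403 and 0.992 in the 5 comparisons. Which of the 2 genes gave the signal was not tested.

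BAK1, the pore former of the list, was lower after differentiation in V71. BAK1 (row 8125766, chromosome 6) stood at 4.63 and 4.91 on the V71 DF arrays, against 5.23 and 5.16 on the V71 NDF arrays. In PLKO it stood at 4.74 and 4.79 in DF, against 5.0 and 5.14 in NDF. The DF arrays were below the NDF arrays in each line. In V71 the change was -0.43 (SE 0.11, 95% confidence interval -0.67 to -0.19), or 1.34-fold, with an adjusted p of 0.0278 in limma. In PLKO it was -0.31 (-0.55 to -0.07) with an adjusted p of 0.0997, and the difference between the responses, -0.12, had an adjusted p of 0.906. The lines themselves differed by 0.00 in DF (-0.24 to 0.24, adjusted p = 0.993) and by 0.12 in NDF (-0.12 to 0.36, adjusted p = 0.741). The V71 change missed the threshold without moderation, at an adjusted p of 0.139, with the 4 V71 arrays alone, at 0.0637, and without V71 NDF replicate 2, at 0.136. It also missed without V71 NDF replicate 3, at 0.0799, and without V71 DF replicate 1, at 0.179, where the change was -0.29.

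BID, a BH3-only protein that caspase-8 cuts to link death receptors with mitochondria, had lower values in DF in both lines and did not pass. BID (row 8074261, chromosome 22) stood at 6.91 and 6.86 in V71 DF against 7.11 and 7.06 in V71 NDF, and at 6.77 and 6.69 in PLKO DF against 6.98 and 7.03 in PLKO NDF. The DF and NDF arrays did not overlap in either line. The change was -0.20 in V71 (95% confidence interval -0.38 to -0.01, adjusted p = 0.17 in limma) and -0.27 in PLKO (-0.46 to -0.09, adjusted p = 0.0599). In PLKO it passed with a trended and robust prior, at 0.049, and with adjustment over rows of 1 gene only, at 0.0481. V71 minus PLKO was 0.16 in DF (adjusted p = 0.395) and 0.08 in NDF (adjusted p = 0.781).

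The other BH3-only members passed in no comparison. BCL2L11 (BIM, row 8044375, chromosome 2), an inducer of death when trophic support is lost, stood at 6.28 and 6.42 in V71 DF, 6.07 and 6.24 in V71 NDF, 6.16 and 6.35 in PLKO DF, and 6.30 and 6.15 in PLKO NDF. Its V71 DF arrays lay above its V71 NDF arrays and its PLKO arrays overlapped, with changes of 0.19 (95% confidence interval -0.05 to 0.44, adjusted p = 0.339 in limma) and 0.03 (-0.21 to 0.28, adjusted p = 0.924). HRK (row 7966746, chromosome 12), induced in rat sympathetic neurons without nerve growth factor, kept to between 6.30 and 6.49 over all 8 arrays. Its change was 0.09 in V71 (-0.10 to 0.27, adjusted p = 0.618) and 0.01 in PLKO (-0.17 to 0.20, adjusted p = 0.956).

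BMF (row 7987454, chromosome 15), which dynein light chain holds at the cytoskeleton, had its widest spread in V71 NDF. Its arrays stood at 5.26 and 5.20 in V71 DF, 4.80 and 5.29 in V71 NDF, 5.44 and 5.20 in PLKO DF, and 5.14 and 5.01 in PLKO NDF. The V71 arrays overlapped between DF and NDF, and the changes were 0.18 in V71 (95% confidence interval -0.15 to 0.52, adjusted p = 0.546 in limma) and 0.25 in PLKO (-0.09 to 0.58, adjusted p = 0.39). BIK (row 8073605, chromosome 22), a BH3-only protein of the endoplasmic reticulum, was near the dim end of the arrays, with group means at percentiles 31.7 to 36.0. It stood at 3.38 and 3.69 in V71 DF, 3.42 and 3.39 in V71 NDF, 3.50 and 3.39 in PLKO DF, and 3.65 and 3.66 in PLKO NDF. Its change was 0.13 in V71 (adjusted p = 0.549) and -0.21 in PLKO (adjusted p = 0.291), and the difference between these, 0.34 (0.00 to 0.69), had an adjusted p of 0.545. Between the lines, the differences of BCL2L11, HRK, BMF and BIK ran from -0.25 to 0.09, with adjusted p values of 0.361 to 0.966.

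**Figure D3:**
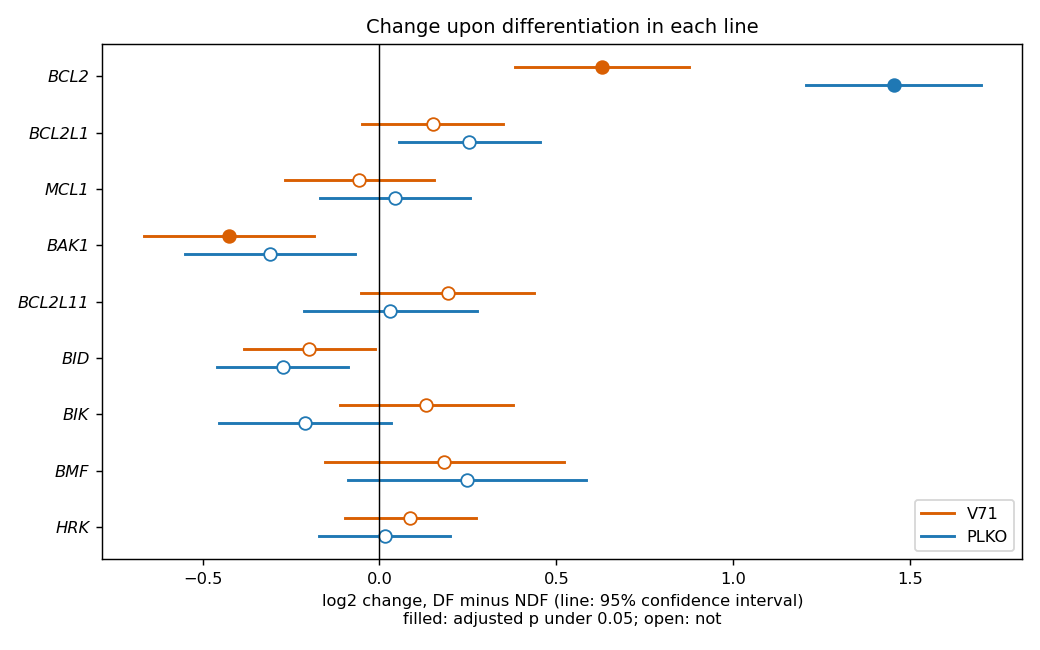
Change upon differentiation (log2, DF minus NDF) of the 9 measured members in V71 (orange) and PLKO (blue), with 95% confidence intervals from limma. Filled points passed an adjusted p of 0.05. BCL2 is filled in both lines, at 0.63 and 1.45, and BAK1 in V71, at -0.43.

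Counted over the list, 2 of 9 members passed upon differentiation in V71, with BCL2 higher and BAK1 lower, beside 16.5% of all genes. In PLKO 1 of 9 passed, BCL2, beside 15.8% of all genes. With a fold of at least 1.5 as well, BCL2 alone was called in each line, beside 7.53% of genes in V71 and 7.04% in PLKO. The median change of the members was 0.13 in V71 and 0.03 in PLKO, against 0.00 and 0.01 over all genes. In V71 the DF arrays were all above the NDF arrays for BCL2, BCL2L1, BCL2L11 and HRK, 4 of 9 beside 27.7% of all genes, and all below for BAK1 and BID, 2 of 9 beside 27.3%. In PLKO they were above for BCL2, BCL2L1 and BMF, 3 of 9 beside 29.2%, and below for BAK1, BID and BIK, 3 of 9 beside 25.9%.

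Between the lines 0 of 9 members passed in either condition. In limma 6.51% of all genes passed in DF and 3.41% in NDF, and 3.06% and 2.15% of them were also at least 1.5-fold apart. At an unadjusted p under 0.05 the count was 2 of 9 in DF, BCL2 and BCL2L1, beside 19.5% of all genes. In NDF it was 3 of 9, BCL2, BCL2L1 and BIK, beside 15% of all genes. An ordinary linear model without moderation also passed 0 members in both, whereas a trended and robust prior passed BCL2 in NDF, at an adjusted p of 0.0292. The median difference of the members was 0.08 in DF and 0.08 in NDF, against 0.01 and 0.01 over all genes. In DF the V71 arrays lay above the PLKO arrays for BCL2L1 and BID, beside 24.6% of all genes, and below for BCL2 and HRK, beside 21.1%. In NDF they lay above for BCL2, BCL2L1, MCL1, BAK1 and BID, 5 of 9 beside 26% of all genes, and below for BIK and HRK, 2 of 9 beside 21.5%.

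**Figure D4:**
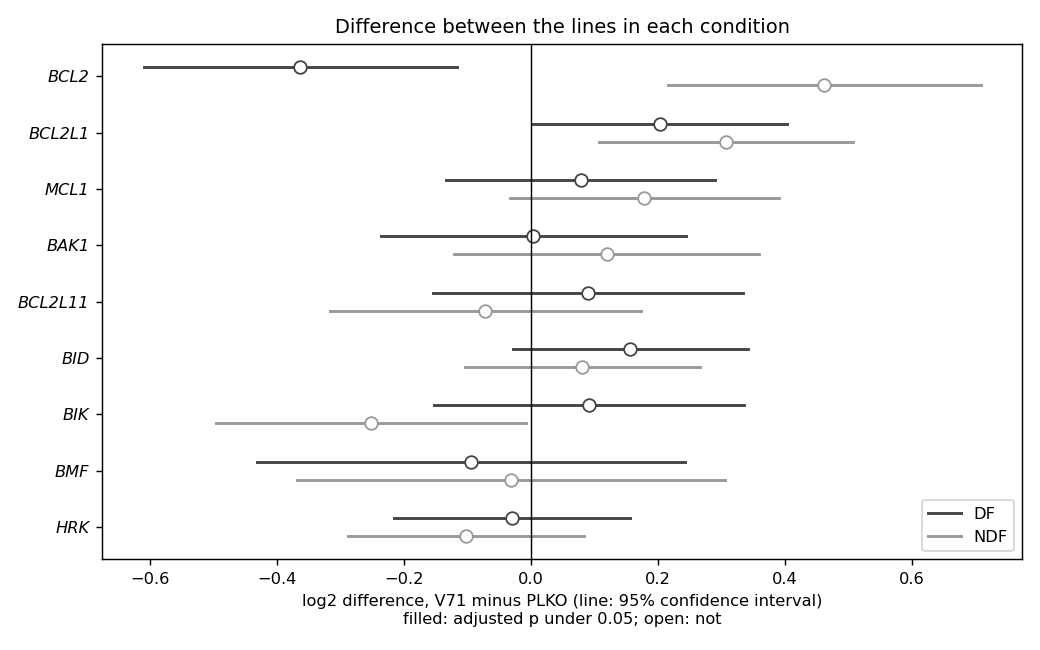
Difference between the lines (log2, V71 minus PLKO) of the 9 measured members in DF (dark grey) and NDF (light grey), with 95% confidence intervals from limma. All points are open, since none passed an adjusted p of 0.05. BCL2 lies at -0.36 in DF and at 0.46 in NDF.

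Other measured features moved with the same groups. The counts of passing genes in these and the later lists stand beside shares over all genes. Those shares were 16.5% in V71 and 15.8% in PLKO upon differentiation. Between the lines they were 6.51% in DF and 3.41% in NDF, and in the interaction 1.39%. All 17 proliferation genes fell upon differentiation in both lines, with a median change of -1.45 in V71 and -1.91 in PLKO. In DF, 14 of the 17 were higher in V71 than in PLKO and 1 was lower, and the array means over the list ran from 6.67 to 6.76 in V71 DF and from 6.05 to 6.19 in PLKO DF. In NDF, 1 of the 17 was higher and 1 lower, with array means of 7.97 to 8.0 in V71 and 7.79 to 7.81 in PLKO. The lines also differed in markers of substrate-adherent (S-type) neuroblastoma cells, of which 5 of 20 were lower in V71 DF than in PLKO DF and 8 of 20 lower in V71 NDF than in PLKO NDF. Array means over these 20 markers were 4.40 to 4.50 in V71 DF, 4.53 to 4.63 in V71 NDF, 4.80 to 4.83 in PLKO DF and 5.22 to 5.24 in PLKO NDF. The median difference over the 20, V71 minus PLKO, was only -0.03 in DF and -0.13 in NDF, so most of the list differed little. Between 2 and 5 of the 20 had group means below the lower quartile. Upon differentiation 1 of the 20 rose and 4 fell in V71, and 6 fell in PLKO. In the interaction 4 of the 20 passed, all positive, among them VIM at 1.44 (adjusted p = 0.00446 in limma), SNAI2 at 1.11 (adjusted p = 0.00408) and DCN at 0.90 (adjusted p = 0.0348). VIM and DCN were dim in V71. VIM averaged 3.20 in V71 NDF and 2.91 in V71 DF, against 4.94 in PLKO NDF and 3.21 in PLKO DF. DCN averaged 2.55 and 2.38 in V71, against 4.69 and 3.62 in PLKO. VIM in V71 DF and DCN in both V71 groups lay below the lower quartile, and SNAI2 lay below it in no group. Of the 13 noradrenergic markers, 2 rose and 6 fell in V71 upon differentiation, and 3 rose and 5 fell in PLKO. Between the lines 2 were higher and 1 lower in V71 in DF, and 3 higher and 1 lower in NDF. Of these markers CHGA passed in the interaction, at -0.87 (adjusted p = 0.0142). Without moderation VIM, SNAI2, DCN and CHGA missed there, at 0.151 to 0.339. With arrays left out, CHGA missed in 6 of 8 fits, at up to 0.0994 without PLKO NDF replicate 3, and DCN at up to 0.143. The part of these lists in the BCL2 and BAK1 results was not tested.

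Among 16 other genes of the family, BOK rose and PMAIP1 fell upon differentiation, and the remaining 14 did not pass. BOK, a relative of BAK1, averaged 6.16 ± 0.06 in V71 DF and 5.53 ± 0.15 in V71 NDF, a change of 0.63 (adjusted p = 0.00335 in limma). It averaged 5.58 ± 0.10 in PLKO DF and 5.06 ± 0.10 in PLKO NDF, a change of 0.52 (adjusted p = 0.00934). BOK was also higher in V71 than in PLKO, by 0.58 in DF (adjusted p = 0.0127) and by 0.47 in NDF (adjusted p = 0.0483). PMAIP1 encodes NOXA, the BH3-only partner of MCL1. It averaged 5.09 ± 0.04 in V71 DF and 5.90 ± 0.09 in V71 NDF, a change of -0.81 (adjusted p = 0.00207), and 5.04 ± 0.26 in PLKO DF and 5.97 ± 0.12 in PLKO NDF, a change of -0.93 (adjusted p = 0.000949). BAX, the other pore former, changed by -0.17 in V71 (adjusted p = 0.341) and -0.08 in PLKO (adjusted p = 0.733). The higher BOK in V71 NDF was lost without any 1 of the 8 arrays, with an adjusted p of up to 0.365 without PLKO NDF replicate 3, and the other BOK and PMAIP1 changes missed the threshold without moderation, at adjusted p values of 0.0545 to 0.139. BOK in DF also missed without V71 DF replicate 1, at 0.0534, without V71 DF replicate 2, at 0.0716, and without PLKO DF replicate 2, at 0.0705. In PLKO its change missed without PLKO NDF replicate 3, at 0.0988, and without PLKO DF replicate 1, at 0.0627.

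Downstream of the mitochondria, 9 of 11 listed apoptosome and caspase genes were measured. CASP9, the caspase that the apoptosome activates, rose by 0.84 in V71 (adjusted p = 0.000559 in limma) and by 0.68 in PLKO (adjusted p = 0.00205), and it passed under every setting tried. Its means were 6.86 ± 0.05 in V71 DF and 6.02 ± 0.20 in V71 NDF, and 6.70 ± 0.01 in PLKO DF and 6.02 ± 0.02 in PLKO NDF. CASP2, an initiator caspase, fell by 0.49 in V71 (adjusted p = 0.00656), also under every setting tried. In PLKO it averaged 7.29 ± 0.09 in DF and 7.61 ± 0.09 in NDF, lower in DF as well, and did not pass. No gene of this list passed in the interaction. CASP6, an executioner caspase, changed by -0.32 in V71 (adjusted p = 0.0459) and -0.32 in PLKO (adjusted p = 0.0468). ENDOG, a mitochondrial nuclease, changed by -0.33 in V71 (adjusted p = 0.0448) and -0.35 in PLKO (adjusted p = 0.0353). CASP6 in V71 was not tried under other settings. CASP6 in PLKO and ENDOG in both lines missed the threshold under several left-out arrays. They also missed without moderation, at adjusted p values of 0.0928 for CASP6 in PLKO and, for ENDOG, 0.113 in V71 and 0.104 in PLKO. Without PLKO NDF replicate 2 the PLKO values missed, at 0.306 for CASP6 and 0.111 for ENDOG, and without V71 NDF replicate 3 ENDOG in V71 missed, at 0.201. In each line 1 gene of the list rose, CASP9, and 3 in V71 and 2 in PLKO fell, beside 16.5% and 15.8% of all genes passing.

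Of 10 inhibitor of apoptosis genes and their antagonists, 9 were measured. BIRC5, or survivin, which also serves in mitosis, averaged 5.75 ± 0.09 in V71 DF and 7.21 ± 0.00 in V71 NDF, a fall of 1.46 in log2 with an adjusted p of 1.29e-05 in limma. In PLKO it averaged 5.34 ± 0.13 in DF and 6.88 ± 0.07 in NDF, a change of -1.54 with an adjusted p of 7.16e-06. BIRC5 moved with the proliferation genes described above. With the mean of all its rows in place of the brightest, BIRC5 changed by -0.78 in V71 and -0.92 in PLKO. BIRC2 (0.48, adjusted p = 0.0107) and NAIP (0.39, adjusted p = 0.0301) rose in V71 and did not pass in PLKO, where their adjusted p was 0.19 for BIRC2 and 0.175 for NAIP. Without moderation the V71 changes missed, at adjusted p values of 0.08 for BIRC2 and 0.123 for NAIP. Both missed without some arrays, among them V71 DF replicate 2, at adjusted p values of 0.0782 for BIRC2 and 0.176 for NAIP. XIAP, the direct caspase inhibitor, passed in no comparison, with changes of 0.22 in V71 (adjusted p = 0.206) and 0.13 in PLKO (adjusted p = 0.506).

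**Figure D5:**
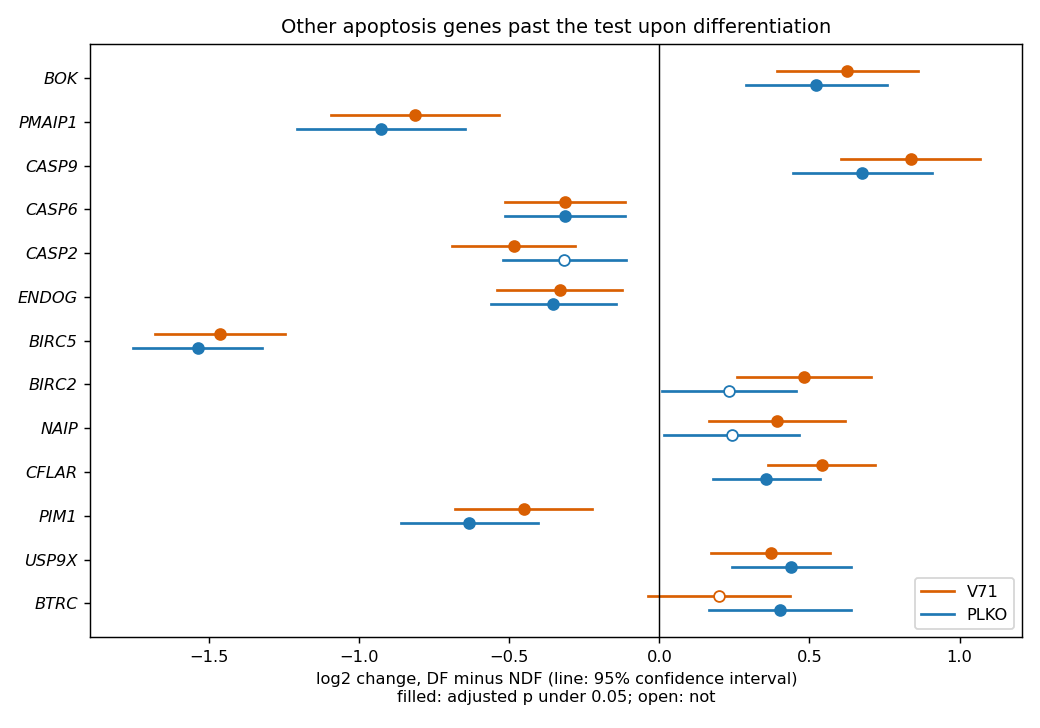
Change upon differentiation (log2, DF minus NDF) in V71 (orange) and PLKO (blue) of 13 other apoptosis genes that passed an adjusted p of 0.05 in at least 1 line (filled points), with 95% confidence intervals from limma. BIRC5 lies farthest below 0, at -1.46 and -1.54, and CASP9 farthest above, at 0.84 and 0.68.

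Upstream, 13 of 15 death receptor and adaptor genes were measured. CFLAR, the inhibitor of caspase-8 activation, rose by 0.54 in V71 (adjusted p = 0.00163 in limma) and by 0.36 in PLKO (adjusted p = 0.0166). The PLKO change missed without PLKO NDF replicate 2, at an adjusted p of 0.113, without PLKO NDF replicate 3, at 0.101, and without PLKO DF replicate 2, at 0.0715. TNFRSF10B, a receptor for the ligand TRAIL, was lower in V71 in both conditions, with means of 7.53 ± 0.02 in V71 DF and 8.03 ± 0.03 in PLKO DF, and of 7.30 ± 0.09 in V71 NDF and 7.90 ± 0.13 in PLKO NDF. The difference was -0.50 in DF (adjusted p = 0.0142) and -0.60 in NDF (adjusted p = 0.00847). Without moderation both missed the threshold, at adjusted p values of 0.109 in DF and 0.115 in NDF. The DF difference missed the threshold without any 1 of the 4 DF arrays, at adjusted p values of 0.0584 to 0.0789. The NDF difference missed it without V71 NDF replicate 2, at 0.0777, and without PLKO NDF replicate 2, at 0.108.

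Of 14 genes whose products bind, stabilize or remove family members, 13 were measured. PIM1, a kinase that inactivates BAD, fell by 0.45 in V71 (adjusted p = 0.0165 in limma) and by 0.63 in PLKO (adjusted p = 0.00277). USP9X, the deubiquitinase that stabilizes MCL1, rose by 0.37 in V71 (adjusted p = 0.0223) and by 0.44 in PLKO (adjusted p = 0.00984). BTRC, a ubiquitin ligase subunit, rose in PLKO by 0.40 (adjusted p = 0.0353). Without moderation PIM1 missed in both lines, at 0.0989 in V71 and 0.0525 in PLKO. In that fit USP9X in V71 missed at an adjusted p of 0.0655 and BTRC in PLKO at 0.153. USP9X in PLKO missed without PLKO NDF replicate 3, at 0.103, and without PLKO DF replicate 2, at 0.0587, and the V71 changes of both genes and BTRC were lost with at least 1 array left out.

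All 14 listed transcription regulators of the family were measured. MYC, which sensitizes cells to death when BCL2 is low, fell by 1.34 in V71 (adjusted p = 0.000182 in limma) and by 0.94 in PLKO (adjusted p = 0.00162), the second of which missed without moderation, at 0.0718. MYCN, the neuroblastoma oncogene, averaged 6.56 ± 0.05 in V71 DF and 6.05 ± 0.11 in V71 NDF, a change of 0.52 (adjusted p = 0.00364). In PLKO it averaged 5.63 ± 0.05 in DF and 5.76 ± 0.01 in NDF and did not pass (-0.13, adjusted p = 0.457). V71 minus PLKO for MYCN was 0.93 in DF (adjusted p = 0.000333), which held under every setting tried. The difference of its responses, 0.65, had an adjusted p of 0.0498, and that call was lost without any 1 of the 8 arrays, with an adjusted p of up to 0.22 without PLKO NDF replicate 3. Upon differentiation 2 of the 14 rose in V71, MYCN and STAT3, and 1 in PLKO, DDIT3. The same count of 3 fell in each line, MYC, E2F1 and NFKB1, of which E2F1 is also among the proliferation genes. Without moderation the STAT3 change in V71 missed, at an adjusted p of 0.154. In PLKO the changes of E2F1 and NFKB1 missed in that fit, at 0.0614 and 0.131. Their changes in V71 and that of DDIT3 in PLKO were not tried under other settings. In DF, E2F1 was higher in V71 than in PLKO by 0.47 (adjusted p = 0.0363), which missed the threshold under most left-out arrays, with an adjusted p of up to 0.218 without V71 DF replicate 1. CREB1 passed in no comparison, with changes of -0.09 in V71 (adjusted p = 0.692) and -0.05 in PLKO (adjusted p = 0.858).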

How the data were processed

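RNA of 8 SHSY5Y samples was hybridised to Affymetrix Human Gene 1.0 ST arrays. The authors ran RMA in Partek Genomics Suite 6.5 and deposited log2 values, which were taken as they are. Of 28869 rows, 19310 name 1 gene, 1752 several and 7807 none. The genome build of the annotation is not given in the sources used here, so chromosomes come by name from the GRCh38.p14 gene table. A gene with several rows was represented by the row with the highest mean.

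A linear model of 4 group means was fitted to all rows and all 8 arrays in limma 3.58.1 (R 4.3.3), with moderated variances (4 residual and 5.43 prior degrees of freedom, median residual SD 0.0996 in log2). P-values are two-sided and Benjamini-Hochberg adjusted over all rows. "Passed" means an adjusted p under 0.05, and "called" also a fold of at least 1.5, both named in the study's methods. The fit was tested on simulated data. With 2 arrays per group the number of arrays limits the precision, and p-values measure the spread between these arrays only.

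The members and gene lists were chosen with earlier results of these data known. Named genes were all members, up to 3 genes with the largest change among those past the test from each list and comparison, and the 3 patterns closest to each of the 2 members with the widest range. BAX, XIAP, CREB1, DDIT3, CASP6 in V71, and E2F1 and NFKB1 in V71 were named after their values were seen. Motifs were searched in RefSeq promoter windows. A planned description of the BH3 segment in the proteins was not done, as no protein sequences were used here.

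The alternatives were no moderation (an ordinary analysis of variance of the 4 group means; the methods name an analysis of variance without its factors), a robust prior with a trend, each array left out, median centring, renewed quantile normalization, a filter on dim rows (highest group mean below percentile 33), adjustment over rows of 1 gene, only the 4 arrays compared, other thresholds, the mean of all rows of a gene, and a block on replicate number.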

Additional observations from a re-analysis of the deposited data

Results flagged for a closer look

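The BCL2 response to differentiation differed between the lines by the interaction test, at -0.82 on the log2 scale for V71 minus PLKO (adjusted p = 0.046 in limma over all rows). The change was 0.63 in V71 and 1.45 in PLKO, with each DF array above each NDF array of its line. Leaving out any 1 of the 8 arrays gave between -0.94 and -0.71 and an adjusted p of 0.063 to 0.217.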

How the results depend on the processing

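Over all alternatives, the log2 changes of the members lost the threshold in 19 cases and gained it in 4. No change that passed the threshold changed sign. Among changes that did not pass, the sign turned in 22 cases. MCL1 in V71 upon differentiation came to 0.0039 after quantile normalization again. The other 21 had an array left out. Over these fits, the differences between the lines in DF ran from -0.13 to 0.14 for BAK1, -0.0045 to 0.18 for BCL2L11, -0.064 to 0.25 for BIK, -0.21 to 0.024 for BMF and -0.017 to 0.17 for MCL1. In NDF they ran from -0.16 to 0.015 for BCL2L11 and -0.27 to 0.21 for BMF. Changes upon differentiation ran from -0.023 to 0.29 for BIK and -0.058 to 0.43 for BMF in V71, and in PLKO from -0.063 to 0.13 for BCL2L11, -0.0075 to 0.036 for HRK and -0.051 to 0.14 for MCL1. Interaction values ran from -0.25 to 0.022 for BAK1 and -0.30 to 0.18 for BMF. Of 2 members past the adjusted p upon differentiation in V71, 0 were left without moderation, 1 with the 4 arrays alone and 1 at an adjusted p under 0.01. Leaving out single arrays gave 1 to 2, with the called count, 1, at 0 to 1. That called count was 0 without moderation, 2 at a fold of at least 1.2 and 0 at a fold of at least 2. In PLKO the count of 1 became 2 with the trended prior and 2 with adjustment over rows of 1 gene, both by BID. In NDF the 0 members that differed between the lines became 1, BCL2, with the trended prior (adjusted p = 0.0292). The interaction count of 1, BCL2, became 0 without moderation, after quantile normalization again, at an adjusted p under 0.01, at a fold of at least 2, and without any 1 of the arrays (0 to 0). It was 1 with the trended prior, at an adjusted p of 0.0134.

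The sample titles do not say whether equal replicate numbers mark paired arrays. Deviations of same-numbered V71 and PLKO arrays correlated at 0.188 in DF and -0.176 in NDF, which cannot decide it. DF and NDF share 1 number only, so no paired analysis of differentiation was possible. With a replicate block in the line comparisons and the interaction, the interaction count was 0 (adjusted p = 0.103 for BCL2), and all genes past the threshold numbered 1032 in DF, 511 in NDF and 190 in the interaction. With the numbers crossed in NDF, chosen after seeing the data, 1 member passed in NDF and 1 in the interaction.

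Over all genes, 1197 passed between the lines in DF and 627 in NDF, 3034 upon differentiation in V71, 2895 in PLKO, and 256 in the interaction. Without moderation these were 227, 120, 1515, 1456 and 3. At an adjusted p under 0.01 they were 528, 322, 1757, 1658 and 125, and with the 4 arrays alone 667 passed in DF. With a fold of at least 1.5 the main counts were 563, 396, 1383, 1293 and 256. Without moderation 166 in DF and 99 in NDF were called, and at a fold of at least 2 the counts were 152, 133, 486, 525 and 133. In each comparison, leaving out at least 1 of the arrays lowered the count past the threshold by over 1.5 times. The shares of all genes given beside the members fell with it. The counts fell less without some other arrays, and rose upon differentiation in V71 without either PLKO DF array. The lowest were 559 in DF (without V71 DF replicate 1), 270 in NDF (without PLKO NDF replicate 3), 1979 in V71 (without V71 NDF replicate 2), and 1461 in PLKO and 120 in the interaction (both without PLKO NDF replicate 3).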

Other observations

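In DF, survivin (BIRC5) and the kinase PIM1 were also higher in V71 than in PLKO. BIRC5 averaged 5.75 ± 0.09 in V71 DF and 5.34 ± 0.13 in PLKO DF (SD, n = 2 each), a difference of 0.41 with an adjusted p of 0.0425 in limma. PIM1 averaged 5.96 ± 0.04 in V71 DF and 5.52 ± 0.07 in PLKO DF, a difference of 0.44 with an adjusted p of 0.0391. BIRC5 missed the threshold without any 1 of the 8 arrays, at adjusted p values of 0.0505 without PLKO DF replicate 1 to 0.248 without V71 DF replicate 1. It also missed without moderation, at 0.172, with the 4 DF arrays alone, at 0.13, and with the mean of all its rows, where the difference was 0.28, at 0.132. PIM1 missed without moderation, at 0.188, with the 4 DF arrays alone, at 0.0707, without either PLKO NDF array, at 0.0745, and without any 1 of the 4 DF arrays, at 0.0785 to 0.197.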
